A study of Mus musculus with 20 samples.

Results

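The genes described are 9 parts of the Notch pathway: the receptors Notch1 and Notch2, the ligands Dll1, Dll4 and Jag1, the receptor-modifying enzyme Lfng, the nuclear factor Rbpj and the targets Hes1 and Nrarp. They were taken by symbol from 2 deposited tables, and all 9 were present in both, among 11284 genes that the tables share. RNA sequencing was done on crypt epithelium that had been sorted out of the small intestine of C57BL/6J mice aged 8 weeks. One genotype was Itgb7+/+, here WT for wild type, and the other Itgb7-/-, here KO for knockout, without the integrin beta 7 subunit that lymphocytes use to home to and stay in the gut. Every mouse, controls included, carried the Lgr5-GFP reporter of crypt stem cells. Cells that excluded 7AAD, lacked CD45, CD31 and TER119 and carried EpCAM were divided into GFP-high cells, which the labels name as stem cells, and GFP-low cells, which they name as transient amplifying (TA) cells.

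Notch receptors are cut when a Delta or Jagged ligand on a neighbouring cell binds them. The freed intracellular part joins RBPJ on DNA and switches on targets such as Hes1, whose product represses Atoh1, the factor that commits crypt cells to the secretory fate. In the crypt, stem and progenitor cells receive the signal and remain proliferative or become absorptive, while Paneth cells and secretory progenitors present Delta ligands. NRARP is a feedback inhibitor that the pathway induces, and LFNG is a Fringe glycosyltransferase that changes which ligands a receptor responds to.

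The 20 libraries formed 4 groups of 5: WT GFP-high and WT GFP-low from mice numbered 1, 3, 6, 7 and 8, and KO GFP-high and KO GFP-low from mice numbered 2, 3, 4, 5 and 6. Total counts ran from 20900404 to 27838392 per library. Lgr5 was at 101.7 ± 20.0 CPM (counts scaled to library size; SD, n = 5) in WT GFP-high and 12.9 ± 6.71 CPM in WT GFP-low libraries, and at 105.4 ± 11.1 and 7.00 ± 2.38 CPM in the KO ones. Itgb7 itself was in neither table and offered no check of the labelled genotypes. The lowest mean count of any listed gene was 17.0 in the GFP-high and 16.8 in the GFP-low table, and genes in neither table are not analysed here. Epcam, which defines the epithelium, was between 514.6 and 708.6 CPM in every library, and Ptprc (CD45) and Pecam1 (CD31) were in neither table. Of 12 leukocyte genes listed, 2 (Lyz2 and Itgam) were in both tables, and both were higher in GFP-low cells of both genotypes. Their summed level averaged 11.4 ± 6.11 CPM in WT GFP-high and 46.7 ± 19.9 CPM in WT GFP-low libraries. In the KO ones it averaged 11.2 ± 2.78 and 30.2 ± 10.2 CPM. The source of these transcripts was not tested. The labels name no litters, cages or batches, and p-values measure only the spread between these libraries.

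Of the 9 genes, 4 lie on mouse chromosome 2 (GRCm38, GENCODE release M21). Notch1 is at chr2:26457903-26516663 on the minus strand, Dll4 at chr2:119325784-119335962 on the plus strand, Jag1 at chr2:137081456-137116644 on the minus strand and Nrarp at chr2:25180758-25183339 on the plus strand. The others are Notch2 at chr3:98013527-98150361 (plus), Dll1 at chr17:15367354-15376872 (minus), Hes1 at chr16:30064384-30067796 (plus), Lfng at chr5:140607320-140615545 (plus) and Rbpj at chr5:53466152-53657362 (plus). Exons of Notch1, Notch2, Dll1, Dll4 and Nrarp overlap the span of a noncoding or unclassified gene, whose own exons were not compared. Where exons are shared, reads without strand cannot be told apart.

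Promoter sequences are shown for Dll1 and Dll4, because these ligands moved together in the data, and for Lfng, which held each of the 3 motifs searched. RefSeq (GRCm38.p6) gave promoters for 8 of the 9 genes, and Hes1 was not matched. Each runs 5′ to 3′ on the gene's strand, with 250 bases before the start site and 50 from it on. Capitals mark the core that RBPJ binds, TGGGAA, searched on both strands, and an E-box of the kind bound by basic helix-loop-helix factors. That E-box, CAGCTG, reads the same on both strands. These motifs do not overlap each other. The N-box bound by HES repressors, CACNAG, was searched on both strands as well and is not capitalised.
Dll1, chr17:15376883-15377182, minus strand: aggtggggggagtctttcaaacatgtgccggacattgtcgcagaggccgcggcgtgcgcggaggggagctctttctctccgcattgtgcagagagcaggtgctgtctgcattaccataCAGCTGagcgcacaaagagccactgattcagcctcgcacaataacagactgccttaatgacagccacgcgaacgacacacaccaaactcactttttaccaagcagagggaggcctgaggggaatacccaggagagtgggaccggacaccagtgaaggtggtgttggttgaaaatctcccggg
Dll4, chr2:119325534-119325833, plus strand: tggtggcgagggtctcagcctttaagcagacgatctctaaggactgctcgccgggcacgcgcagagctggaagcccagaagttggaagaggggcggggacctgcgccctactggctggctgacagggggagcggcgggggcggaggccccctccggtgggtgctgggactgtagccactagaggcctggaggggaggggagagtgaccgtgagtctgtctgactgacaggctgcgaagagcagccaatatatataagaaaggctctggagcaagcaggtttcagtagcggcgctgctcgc
Lfng, chr5:140607091-140607390, plus strand: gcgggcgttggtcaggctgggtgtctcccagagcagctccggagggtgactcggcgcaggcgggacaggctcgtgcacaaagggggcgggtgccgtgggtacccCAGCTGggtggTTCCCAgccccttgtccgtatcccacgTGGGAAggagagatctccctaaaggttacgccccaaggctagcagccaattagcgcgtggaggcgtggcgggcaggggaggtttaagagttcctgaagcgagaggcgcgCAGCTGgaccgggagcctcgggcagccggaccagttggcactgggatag
The Lfng promoter held the RBPJ core at positions -135 and -108 and the E-box at -146 and 2, counted with the start site as 1 and the base before it as -1. RefSeq gave 2 promoters for Dll1; the one shown, from the outermost start, held 1 E-box at -132, and the other, further into the gene, held none of the 3 motifs. The Dll4 window held neither the RBPJ core nor the E-box. The N-box stood at -75 in Dll4, at 14 in Dll1 and at -181 in Lfng. Among 32851 promoters of the same length, 25.6% held the RBPJ core, 16.3% the E-box and 42.5% the N-box. Rbpj was the other gene of the set with the RBPJ core, Jag1 and Nrarp the others with the E-box, and Notch1, Notch2 and Nrarp the others with the N-box. A match is only a description of the letters.

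The first comparison asked how the Notch genes differed between GFP-low and GFP-high cells. Both receptors and Hes1 were lower in GFP-low cells, and the Delta ligands Dll1 and Dll4 were higher, in WT and in KO mice alike. In WT mice 2 of the 9 genes rose (Dll1, Dll4), 5 fell (Notch1, Notch2, Hes1, Lfng, Rbpj) and 2 did not pass (Jag1, Nrarp) by the quasi-likelihood test of edgeR at a Benjamini-Hochberg adjusted p under 0.05. In KO mice 2 rose (Dll1, Dll4), 5 fell (Notch1, Notch2, Hes1, Nrarp, Rbpj) and 2 did not pass (Jag1, Lfng). Over all genes tested, 22.0% rose and 21.4% fell in WT, and 26.2% rose and 24.4% fell in KO mice, so a call by itself was common in this comparison. As a median over the 9 genes the log2 fold change came to -0.47 in WT and -0.60 in KO mice, beside -0.01 over all genes in each genotype. When libraries were scaled by their totals alone, the median of all genes moved to -0.37 in WT and -0.27 in KO mice. The fold changes given here are relative to the TMM scaling, which places that median near 0.

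**Figure D1:**
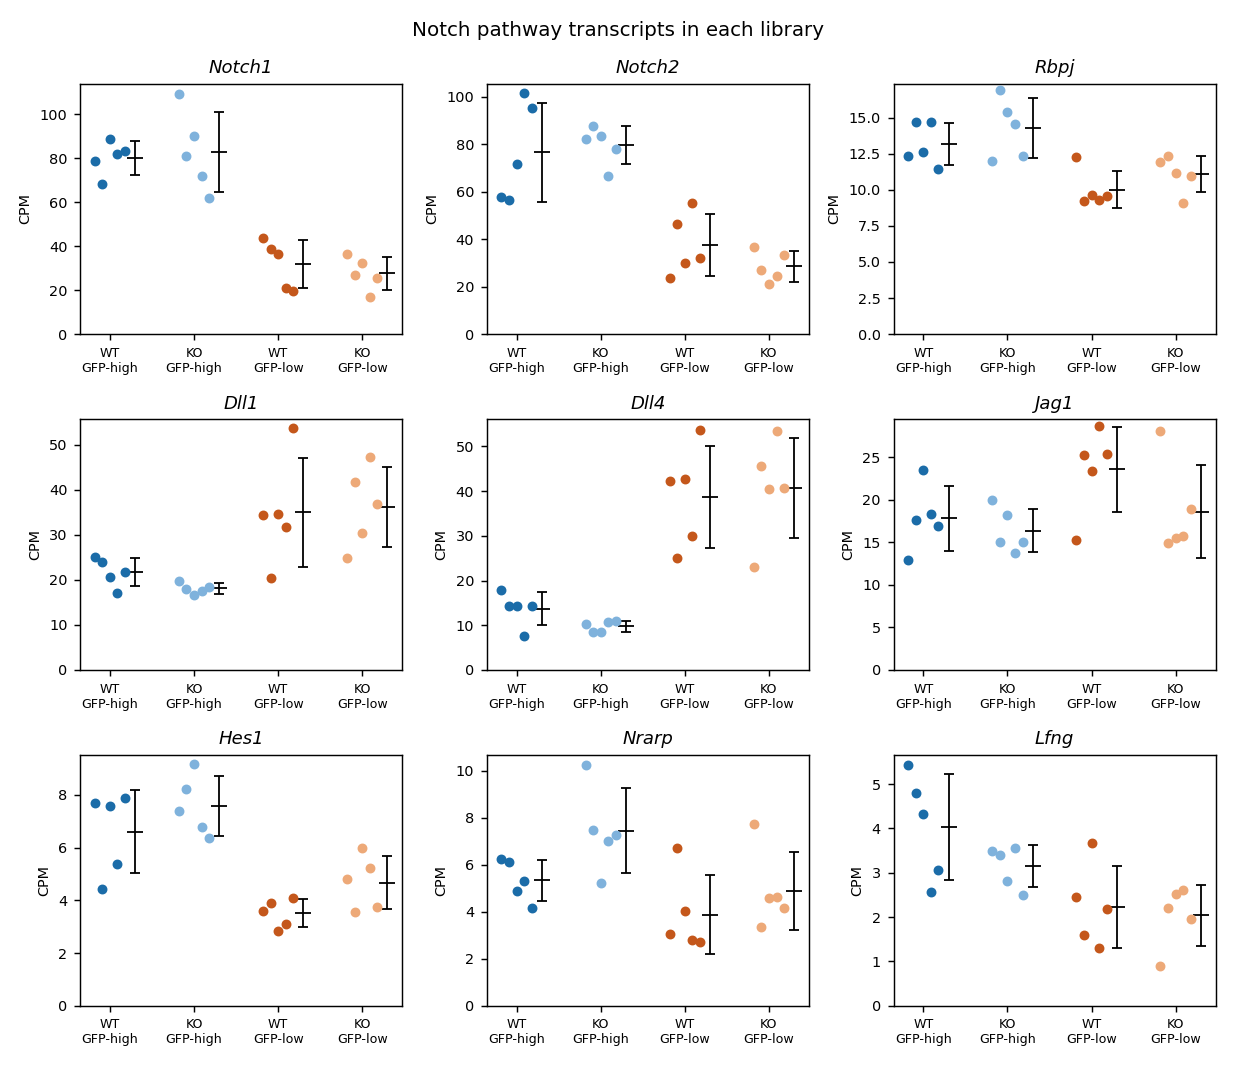
Level of each of the 9 transcripts in each library, in CPM on a linear axis from 0, for WT and KO mice and for GFP-high (blue) and GFP-low (orange) cells. Points are single libraries, and the bar beside them is the mean with its SD (n = 5). Notch1, Notch2 and Hes1 of GFP-low cells lie below all GFP-high libraries of the same genotype, and Dll4 lies above them.

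Notch1 encodes the receptor most studied in crypt stem cells. In WT mice 1, 3, 6, 7 and 8 it stood at 78.8, 68.1, 89.0, 82.2 and 83.1 CPM in GFP-high cells and at 43.6, 38.5, 36.6, 20.9 and 19.7 CPM in GFP-low cells. In KO mice 2, 3, 4, 5 and 6 it stood at 109.4, 80.9, 90.2, 72.2 and 62.0 CPM in GFP-high cells and at 36.3, 26.7, 32.3, 17.1 and 25.5 CPM in GFP-low cells. Every GFP-low library was below every GFP-high library in both genotypes. The log2 fold change was -1.33 ± 0.21 (SE; adjusted p = 0.00027, edgeR) in WT and -1.58 ± 0.19 (adjusted p = 1.39e-05) in KO mice.

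Notch2, the other receptor measured, is a close relative that acts alongside Notch1 in the crypt. In WT mice it was at 57.7, 56.4, 71.7, 101.5 and 95.3 CPM in GFP-high cells and at 23.4, 46.5, 30.1, 55.1 and 32.2 CPM in GFP-low cells, in the same order of mice. In KO mice it was at 82.3, 87.7, 83.2, 66.7 and 77.9 CPM in GFP-high cells and at 36.5, 27.0, 21.1, 24.5 and 33.3 CPM in GFP-low cells. The populations again did not overlap, although in WT mouse 7 the GFP-low value of 55.1 CPM came close to the lowest GFP-high value of 56.4 CPM. It fell by 1.03 ± 0.24 on the log2 scale (adjusted p = 0.00393, edgeR) in WT and by 1.47 ± 0.14 (adjusted p = 1.77e-06) in KO mice. Both receptors were lower in the GFP-low library of 10 of 10 mice. The receptors Notch3 and Notch4 were in neither table.

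Dll4 encodes a Delta ligand and had the larger rise of the 2 genes that rose. In WT mice it measured 17.9, 14.3, 14.2, 7.65 and 14.3 CPM in GFP-high cells, against 42.2, 25.0, 42.8, 30.0 and 53.7 CPM in GFP-low cells. In KO mice it measured 10.4, 8.43, 8.52, 10.8 and 10.9 CPM in GFP-high cells, against 23.1, 45.7, 40.5, 53.4 and 40.8 CPM in GFP-low cells. The groups did not overlap in either genotype, and Dll4 was higher in GFP-low cells of 10 of 10 mice. The log2 fold change was 1.50 ± 0.24 (adjusted p = 0.000304, edgeR) in WT and 2.06 ± 0.19 (adjusted p = 1.15e-06) in KO mice. Scaled by library totals alone it was 1.15 and 1.78, beside -1.67 and -1.82 for Notch1.

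Dll1, the second Delta ligand, changed in the same direction by less. Its WT levels were 25.2, 24.1, 20.7, 17.2 and 21.7 CPM in GFP-high cells and 34.4, 20.4, 34.6, 31.7 and 53.8 CPM in GFP-low cells. Its KO levels were 19.8, 18.1, 16.7, 17.5 and 18.4 CPM in GFP-high cells and 24.8, 41.7, 30.4, 47.3 and 36.9 CPM in GFP-low cells. The WT groups overlapped, because mouse 3 had a lower value in GFP-low than in GFP-high cells, and the KO groups did not; 9 of 10 mice had more in GFP-low cells. The rise was 0.68 ± 0.21 on the log2 scale (adjusted p = 0.0172, edgeR) in WT and 1.01 ± 0.15 (adjusted p = 8.33e-05) in KO mice. Scaled by library totals alone, the WT value was 0.32 and no longer passed (adjusted p = 0.203), while the KO call held.

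Jag1, a ligand of the Jagged class, did not pass in either genotype. It ran from 12.9 to 23.6 CPM in WT GFP-high and from 15.3 to 28.7 CPM in WT GFP-low libraries, and from 13.8 to 20.0 and 14.9 to 28.1 CPM in the KO ones. The log2 fold change was 0.40 ± 0.18 (adjusted p = 0.0900, edgeR) in WT and 0.20 ± 0.17 (adjusted p = 0.364) in KO mice, with 95% intervals of 0.01 to 0.79 and -0.18 to 0.57. With the mouse number as a replicate block the WT value was 0.40 ± 0.12 and passed (adjusted p = 0.0146). It also passed when GFP-high cells of WT mouse 6 or GFP-low cells of WT mouse 1 were left out (0.52 and 0.53, adjusted p between 0.0182 and 0.0330). Scaled by library totals alone, the WT value was 0.04 ± 0.19 (adjusted p = 0.882, edgeR), and in KO mice the sign turned (-0.04).

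Of the targets, Hes1 encodes the repressor that holds back the secretory fate. In WT mice it was at 7.67, 4.43, 7.57, 5.39 and 7.89 CPM in GFP-high cells and at 3.58, 3.91, 2.84, 3.11 and 4.10 CPM in GFP-low cells. In KO mice it was at 7.39, 8.22, 9.18, 6.77 and 6.36 CPM in GFP-high cells and at 4.80, 3.57, 5.98, 5.21 and 3.76 CPM in GFP-low cells. No GFP-low library reached a GFP-high library of its genotype, and 10 of 10 mice had less in GFP-low cells. The log2 fold change was -0.91 ± 0.20 (adjusted p = 0.0032, edgeR) in WT and -0.69 ± 0.18 (adjusted p = 0.00549) in KO mice. The calls for Notch1, Notch2, Dll1, Dll4 and Hes1 held in both genotypes in each fit that left out 1 library.

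Nrarp, the feedback inhibitor, had overlapping groups. In WT mice it was at 6.23, 6.12, 4.89, 5.29 and 4.16 CPM in GFP-high cells and at 3.06, 6.71, 4.04, 2.81 and 2.72 CPM in GFP-low cells. In KO mice it was at 10.2, 7.46, 5.23, 7.00 and 7.27 CPM in GFP-high cells and at 7.72, 3.34, 4.56, 4.61 and 4.15 CPM in GFP-low cells. WT mouse 3 was the single mouse of 10 with a higher value in GFP-low cells. The log2 fold change of -0.60 ± 0.23 passed in KO mice (adjusted p = 0.0421, edgeR), and that of -0.47 ± 0.25 in WT mice did not (adjusted p = 0.155). The KO call was lost in 8 of 10 fits that left out 1 library (-0.62 to -0.46, adjusted p 0.0585 to 0.113), all but those that left out GFP-high cells of mouse 4 or GFP-low cells of mouse 2. The WT value passed without the GFP-low library of mouse 3 (-0.75, adjusted p = 0.0120). Scaled by library totals it passed with all libraries (-0.85, adjusted p = 0.0116). With the mouse number as a replicate block the KO call held (-0.62 ± 0.17, adjusted p = 0.0078, edgeR). The WT value did not pass in that fit (-0.53 ± 0.21, adjusted p = 0.0538).

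Lfng was the lowest of the 9 by CPM, with counts between 20 and 131 in a library. It ranged from 2.56 to 5.42 CPM in WT GFP-high, 1.31 to 3.68 CPM in WT GFP-low, 2.49 to 3.55 CPM in KO GFP-high and 0.897 to 2.61 CPM in KO GFP-low libraries. The groups overlapped in both genotypes, while 10 of 10 mice had less in GFP-low cells. In WT mice it fell by 0.84 ± 0.30 on the log2 scale (adjusted p = 0.0401, edgeR), and the call was lost in 7 of 10 fits that left out 1 library (-0.87 to -0.69, adjusted p 0.0574 to 0.0964), namely those without GFP-high cells of mouse 1, 3 or 6 or GFP-low cells of mouse 1, 3, 7 or 8. In KO mice the value was -0.61 ± 0.26 (adjusted p = 0.0671). It passed with DESeq2 (adjusted p = 0.04996) and under scaling by library totals (-0.90, adjusted p = 0.00706). The mouse number as a replicate block gave -0.87 ± 0.24 in WT (adjusted p = 0.0116, edgeR) and -0.65 ± 0.27 in KO mice (adjusted p = 0.0516).

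Rbpj, the DNA-binding partner of every Notch receptor, differed least among the 5 genes that fell in WT mice. Its levels were 11.4 to 14.7 CPM in WT GFP-high, 9.22 to 12.3 CPM in WT GFP-low, 12.01 to 16.9 CPM in KO GFP-high and 9.06 to 12.3 CPM in KO GFP-low libraries. It fell by 0.39 ± 0.13 on the log2 scale in WT (adjusted p = 0.0262, edgeR) and by 0.35 ± 0.13 in KO mice (adjusted p = 0.0374), with overlapping groups and 10 of 10 mice lower in GFP-low cells. The WT call was lost in 6 of 10 fits without 1 library (-0.38 to -0.35, adjusted p 0.0510 to 0.0674), with GFP-high cells of mouse 3 or 7 or GFP-low cells of mouse 3, 6, 7 or 8 left out. The KO call was lost in 6 of 10 (-0.36 to -0.28, adjusted p 0.0542 to 0.102). Those left out GFP-high cells of mouse 3, 4 or 5 or GFP-low cells of mouse 4, 5 or 6. Both calls held with the mouse number as a replicate block (-0.40 in WT and -0.35 in KO mice, adjusted p = 0.0294 and 0.0290, edgeR).

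**Figure D2:**
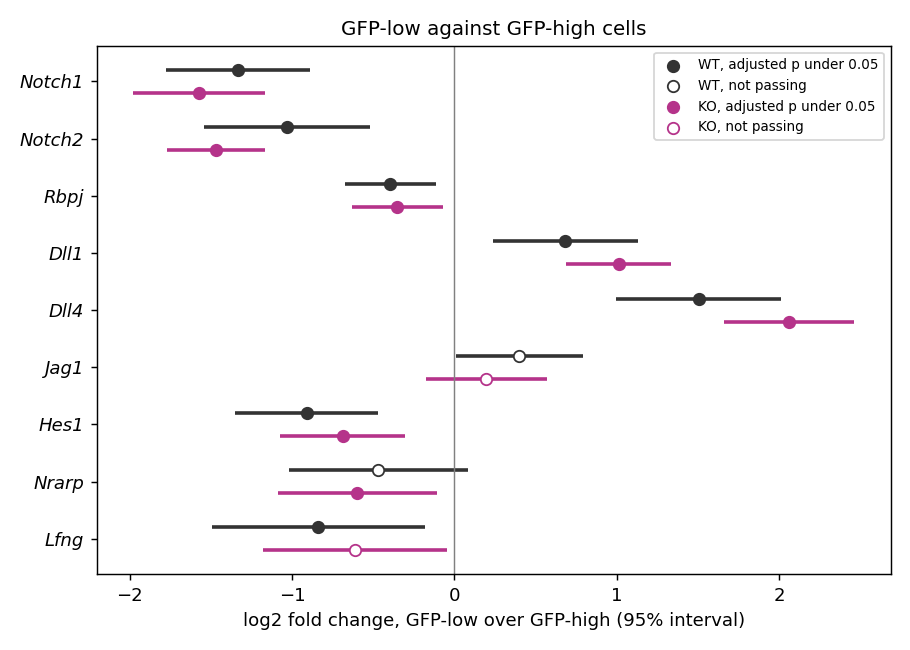
Log2 fold change of GFP-low over GFP-high cells for the 9 genes in WT (black) and KO (magenta) mice, with 95% intervals from edgeR; filled points have an adjusted p under 0.05. Dll1 and Dll4 lie to the right of 0, and Notch1, Notch2, Rbpj and Hes1 lie to the left in both genotypes.

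By groups that did not overlap, Notch1, Notch2 and Hes1 were lower and Dll4 was higher in GFP-low cells of WT mice, and the same 4 genes with Dll1 stood apart in KO mice. Over the 11284 shared genes, 13.7% were lower and 15.0% higher without overlap in WT, and 17.3% lower and 18.1% higher in KO mice.

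Levels can be compared between genes per kilobase of exon, for which all annotated exons of a gene were joined. Exons of rarely used transcripts lengthen this sum and lower the value, which bears most on the long sums of Notch1 (14232 bases) and Rbpj (12750 bases). In GFP-high cells Notch2 had the highest mean, at 7.10 ± 1.94 CPM per kilobase in WT and 7.38 ± 0.74 in KO libraries. Notch1 followed at 5.64 ± 0.54 and 5.83 ± 1.27, and Dll1 at 5.16 ± 0.74 and 4.29 ± 0.27, each within 1 SD of a neighbour in WT mice, so their order is not settled. In GFP-low cells the Delta ligands led: Dll4 was at 10.1 ± 2.95 and 10.6 ± 2.89, and Dll1 at 8.29 ± 2.85 and 8.58 ± 2.12, which did not differ beyond their spread. Jag1 came next at 4.05 ± 0.86 and 3.20 ± 0.94, then Notch2 at 3.47 ± 1.20 and 2.64 ± 0.59, also within their spread. Notch1 and Hes1 ranked between Notch2 and Nrarp in GFP-low cells. Notch1 was at 2.24 ± 0.76 and 1.94 ± 0.51 CPM per kilobase and Hes1 at 1.72 ± 0.26 and 2.29 ± 0.49. Rbpj and Lfng were lowest in all 4 groups, between 0.784 and 1.61 on average.

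The summed level of Dll1 and Dll4 relative to that of Notch1 and Notch2, both per kilobase, crossed from below to above 1 between the populations. It was 0.975, 0.939, 0.667, 0.399 and 0.604 in GFP-high cells of WT mice 1, 3, 6, 7 and 8, and 3.65, 1.61, 3.60, 2.33 and 6.11 in their GFP-low cells. In KO mice 2, 3, 4, 5 and 6 it was 0.482, 0.468, 0.439, 0.618 and 0.622 in GFP-high cells and 2.00, 4.96, 4.19, 7.23 and 3.96 in GFP-low cells. No GFP-high library reached 1 and no GFP-low library fell below it. Where the ratio stands relative to 1 depends on the exon lengths joined for each gene. This ratio was formed from genes whose changes are given above and adds no independent test.

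**Figure D3:**
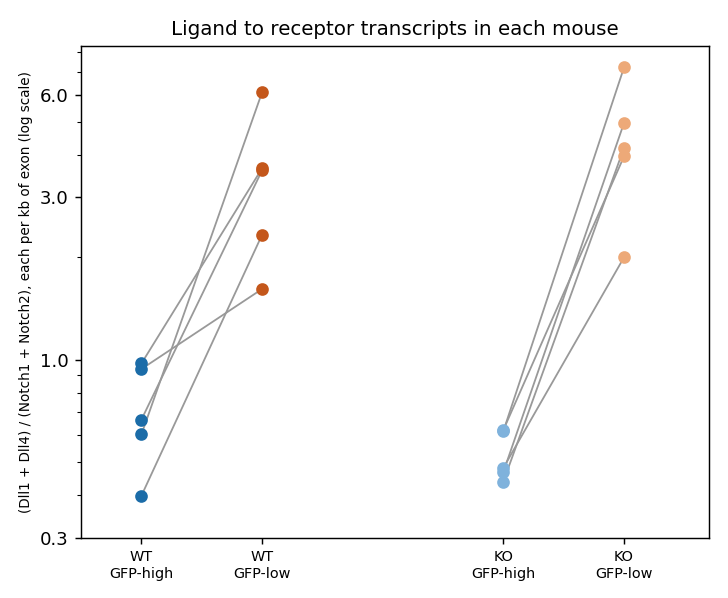
Ratio of Dll1 plus Dll4 to Notch1 plus Notch2 transcripts, each in CPM per kilobase of exon, on a log axis. Lines join the GFP-high and GFP-low libraries with the same mouse number; GFP-high values lie between 0.399 and 0.975 and GFP-low values between 1.61 and 7.23.

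Markers of mature cells moved with the populations, and in bulk RNA fewer cells of a type and less RNA per cell cannot be told apart. All 12 Paneth cell genes rose in GFP-low cells of both genotypes, led by Defa24 and Itln1. Their summed level ran from 15106 to 60791 CPM in WT GFP-high, 60926 to 262625 CPM in WT GFP-low, 18273 to 45518 CPM in KO GFP-high and 25507 to 127456 CPM in KO GFP-low libraries. All 10 goblet cell genes rose as well, with Zg16 and Tff3 the most abundant and summed levels of 2358 to 6007, 30706 to 76589, 2474 to 4698 and 25809 to 56163 CPM in the same order of groups. Of 10 measured secretory progenitor factors, such as Spdef and Xbp1, 7 rose and 1 fell in WT and 9 rose and 1 fell in KO mice. Absorptive enterocyte genes rose in 9 of 10 cases in each genotype, and all 10 stem cell genes fell. No marker of these lists was at 0 in all libraries. The part of these cells in the Notch gene differences was not tested.

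Dll1 and Dll4 also varied together among libraries of the same population. In the 10 GFP-low libraries, after each genotype's mean was subtracted, Pearson's r of their log2 CPM was 0.91 (exact permutation of libraries within genotypes, two-sided p = 6.94e-05, the smallest these 14400 arrangements can give) and Spearman's rho was 0.94 (exact permutation p = 0.000347). Over the 72 pairs formed from the 9 genes in both populations, it was the only 1 with a Benjamini-Hochberg adjusted p under 0.05 (0.005), and r was 0.89 without the 2 libraries farthest from the median of Dll1. In the 10 GFP-high libraries r was 0.87 (exact permutation p = 0.0133, adjusted 0.174) and rho 0.64 (exact permutation p = 0.0643). There r fell to 0.41 without the 2 libraries farthest from the median of Dll1. Leaving out the extremes of Dll1 narrows its range, which can lower r by itself. The relation among the remaining GFP-high libraries is thus not settled. The highest GFP-low values of both ligands were in WT mouse 8 and KO mouse 5, and the lowest in WT mouse 3 and KO mouse 2. Summed secretory progenitor factors were 1001.9 and 863.5 CPM in the first pair of libraries and 532.2 and 406.7 CPM in the second, the highest and lowest of their groups. Other marker sums did not all follow this order. The goblet sum was highest in WT mouse 8 (76589 CPM) and KO mouse 5 (56163 CPM) and lowest in KO mouse 2 (25809 CPM). Its lowest WT value was in mouse 7 (30706 CPM), with 32225 CPM in mouse 3. Enteroendocrine and tuft sums were lowest in WT mouse 3 (1204 and 21.5 CPM) and KO mouse 2 (995.3 and 43.3 CPM). They were highest in WT mice 8 (2751 CPM) and 6 (164.3 CPM) and in KO mouse 4 (2306 and 119 CPM). The Paneth sum was highest in WT mouse 3 (262625 CPM) and lowest in KO mouse 2 (25507 CPM), with 256636 and 89079 CPM in WT mouse 8 and KO mouse 5. The absorptive enterocyte sum ran the other way, at 2917 and 2374 CPM in WT mouse 8 and KO mouse 5 and at 5748 and 3887 CPM in WT mouse 3 and KO mouse 2. The part of these cells in the relation was not tested.

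**Figure D4:**
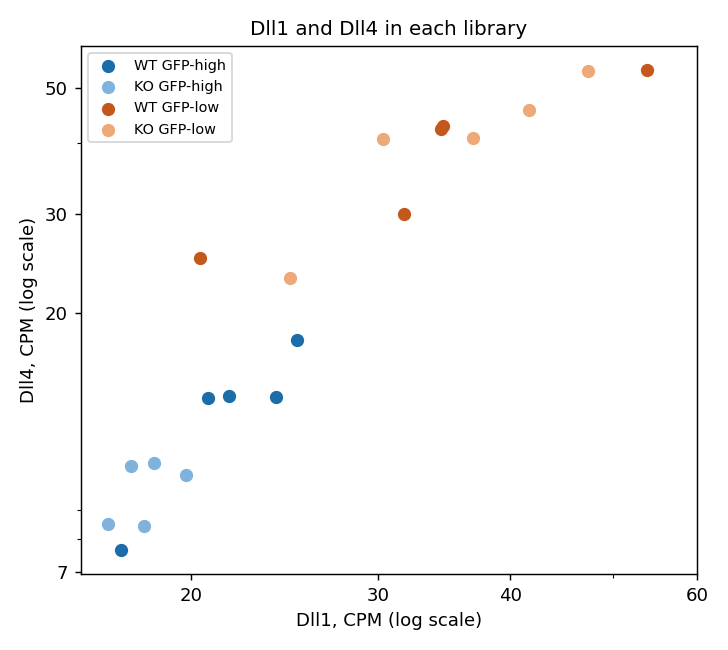
Dll4 against Dll1 in each of the 20 libraries, in CPM on log axes, coloured by genotype and population. GFP-low libraries lie to the upper right, and within them the ligands rise together (Pearson's r of 0.91 over 10 libraries after removal of genotype means).

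Other genes of the pathway were taken from a list of 80 symbols, of which 57 were in both tables. In WT mice 5 rose and 11 fell in GFP-low cells, and in KO mice 8 rose and 17 fell. Over all genes 22.0% rose and 21.4% fell in WT and 26.2% rose and 24.4% fell in KO mice. The share of the 57 genes that fell was near that background, and the share that rose was below it. These counts set the list apart in no tested way. The median log2 fold change of the 57 genes came to -0.11 for WT and -0.08 for KO mice. By role, in WT and KO mice respectively, 2 and 4 of 9 proteolysis genes rose and 0 and 1 fell. Of 12 co-repressors 5 and 6 fell and 0 and 1 rose. The roles were not tested against each other. Rising in both genotypes were 4 genes, among them Neurl3, a ubiquitin ligase related to Neuralized, Psen2, a subunit of gamma-secretase, and Gxylt1, a xylosyltransferase of Notch repeats. The 4 were 80% of the WT and 50% of the KO rises, against 89.5% and 75.1% over all genes. Falling in both were 9 genes, among them Cir1, Ctbp2, Dtx4, Hdac2, Kat2a, Kdelc1, Poglut1 and Tle3, and the 9 were 81.8% of the WT and 52.9% of the KO falls, against 81.3% and 71.5% over all genes. Scaled by library totals alone, 1 rose and 30 fell in WT, and 5 rose and 26 fell in KO mice.

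Among the largest changes, Neurl3 rose by 0.98 ± 0.14 on the log2 scale in WT (adjusted p = 0.000204, edgeR) and by 0.88 ± 0.12 in KO mice (adjusted p = 4.34e-05). Numb, an inhibitor of Notch that is shared unequally between daughter cells, rose in WT mice (0.59 ± 0.19, adjusted p = 0.0258), and its KO value was 0.25 ± 0.25 (adjusted p = 0.434). Dtx4, a Deltex ubiquitin ligase, fell by 1.43 ± 0.17 in WT (adjusted p = 3.49e-05) and by 1.32 ± 0.09 in KO mice (adjusted p = 1.67e-07). Tle3, a Groucho co-repressor that acts with HES proteins, fell by 0.75 ± 0.20 and 0.97 ± 0.12. In KO mice Aph1a, a gamma-secretase subunit, rose by 0.69 ± 0.16 and Poglut1, which glucosylates Notch, fell by 0.65 ± 0.15. Egfl7, a secreted protein of endothelium that is also a marker of the endothelium and stroma list, fell by 1.52 ± 0.27 in WT mice (adjusted p = 0.000674), and its KO value was -0.03 ± 0.22 (adjusted p = 0.931). Vim, the other of the 2 measured genes among the 11 of that list, rose by 2.42 ± 0.40 in WT and 3.27 ± 0.28 in KO mice. Hes6 did not pass (-0.35 in WT and -0.07 in KO mice), and Hes5, Hey1, Hey2, Heyl and Dll3 were in neither table. Poglut2 and Poglut3 are newer names of Kdelc1 and Kdelc2, so 2 genes stood under both names in the list of 80.

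The next comparison asked whether loss of Itgb7 changed these genes in either population. None of the 9 genes passed in GFP-high or in GFP-low cells by edgeR or by DESeq2. Over all genes, edgeR called 0% of 11745 in GFP-high cells, where 1150 had an unadjusted p under 0.05, and 0.00849% of 11778 in GFP-low cells, where 744 did. DESeq2 called 50 genes higher and 95 lower in GFP-high cells, and 1 higher and 11 lower in GFP-low cells. The single gene called by edgeR was Arhgef10, which is no Notch gene and was singled out after its values were seen (log2 fold change -2.30 ± 0.21 in GFP-low cells, adjusted p = 0.00069). The groups of KO and WT mice overlapped for all 9 genes in both populations, against 1.88% of shared genes without overlap in GFP-high and 1.14% in GFP-low cells.

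In GFP-high cells 3 of the 9 had an unadjusted p under 0.05. Dll4 averaged 13.7 ± 3.72 CPM in WT and 9.80 ± 1.23 CPM in KO libraries (log2 fold change -0.47 ± 0.19, 95% interval -0.87 to -0.07, adjusted p = 0.411, edgeR). Dll1 averaged 21.8 ± 3.13 and 18.1 ± 1.14 CPM (-0.26 ± 0.11, interval -0.50 to -0.02, adjusted p = 0.460). For both ligands WT mouse 7 was the lowest of the WT libraries, and for Dll4 it lay below all KO libraries. Nrarp averaged 5.34 ± 0.87 CPM in WT and 7.44 ± 1.80 CPM in KO libraries (0.48 ± 0.18, interval 0.09 to 0.88, adjusted p = 0.387), and KO mouse 4, at 5.23 CPM, lay within the WT range.

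Secretory markers stood lower on average in KO GFP-high libraries beside these ligand values, though none of their genes passed. The summed secretory progenitor factors ran from 279.1 to 468.5 CPM in WT and from 253.3 to 350.6 CPM in KO GFP-high libraries. Summed enteroendocrine genes ran from 135.8 to 594.4 and from 129.9 to 222.2 CPM, and summed tuft cell genes from 13.9 to 32.4 and from 10.05 to 17.2 CPM. The KO range of the Paneth sum (18273 to 45518 CPM) lay inside the WT range (15106 to 60791 CPM). By edgeR, 5 of 10 secretory progenitor and 5 of 10 goblet genes had an unadjusted p under 0.05. So did 6 of 9 enteroendocrine and 5 of 8 tuft cell genes. Of the 12 Paneth genes 0 had one, and of 10 absorptive enterocyte genes 1 did. Over all genes it was 1150 of 11745. WT mouse 7, with the lowest Dll1 and Dll4, also had the lowest WT sums of Paneth (15106 CPM), goblet (2358 CPM) and secretory progenitor genes. The part of these cells in the Dll1 and Dll4 values was not tested.

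The remaining 6 genes had intervals that include 0 in GFP-high cells. Notch1 differed by 0.05 ± 0.13 (interval -0.23 to 0.33) and Notch2 by 0.06 ± 0.16 (-0.27 to 0.40) on the log2 scale between KO and WT mice. Hes1 differed by 0.21 ± 0.18 (-0.19 to 0.60), Rbpj by 0.12 ± 0.13 (-0.15 to 0.39), Jag1 by -0.12 ± 0.15 (-0.45 to 0.21) and Lfng by -0.35 ± 0.23 (-0.84 to 0.14). The intervals of both receptors lie within 0.40 of 0, while that of Lfng is wider.

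In GFP-low cells none of the 9 had an unadjusted p under 0.05. Hes1 came nearest, with 3.51 ± 0.53 CPM for WT and 4.66 ± 1.01 CPM for KO libraries (log2 fold change 0.41 ± 0.20, interval -0.02 to 0.84, adjusted p = 0.788, edgeR). The receptors were at -0.21 ± 0.24 (Notch1, interval -0.73 to 0.31) and -0.40 ± 0.22 (Notch2, -0.88 to 0.08). Dll4 and Dll1 gave 0.07 ± 0.23 (-0.42 to 0.56) and 0.05 ± 0.23 (-0.44 to 0.54), and Jag1 -0.34 ± 0.20 (-0.77 to 0.08). Nrarp gave 0.34 ± 0.29 (-0.29 to 0.96), Lfng -0.14 ± 0.34 (-0.87 to 0.59) and Rbpj 0.15 ± 0.13 (-0.14 to 0.44). These intervals are wider than in GFP-high cells for all 9 genes.

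**Figure D5:**
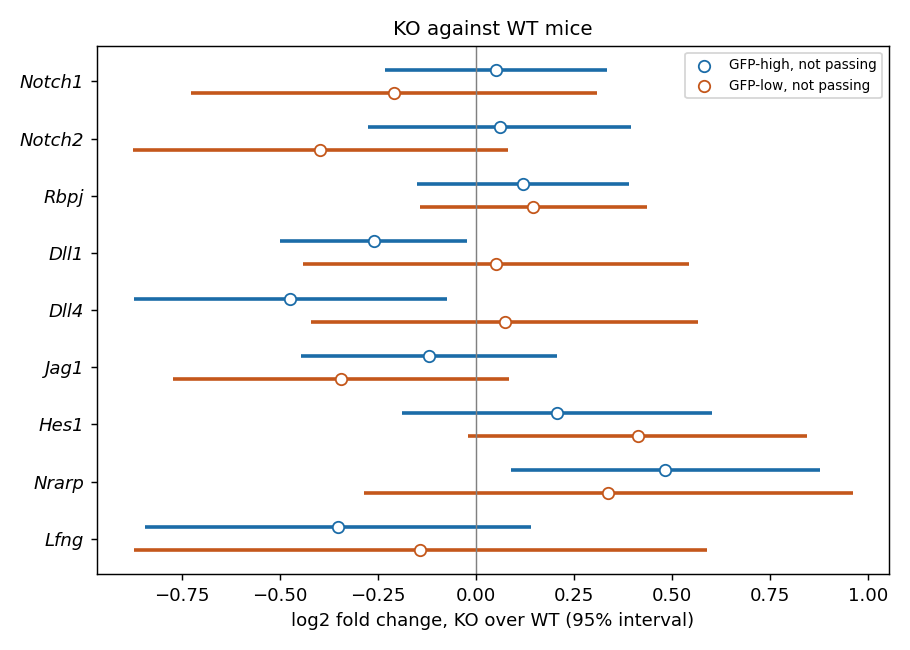
Log2 fold change of KO over WT mice for the 9 genes in GFP-high (blue) and GFP-low (orange) cells, with 95% intervals from edgeR; all points are open because no gene passed an adjusted p of 0.05. In GFP-high cells the intervals of Dll1 and Dll4 lie below 0 and that of Nrarp above it before adjustment over all genes.

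The other pathway genes gave the same count: 0 of 59 tested passed in GFP-high and 0 of 60 in GFP-low cells by edgeR, with 3 and 8 at an unadjusted p under 0.05. In GFP-high cells the smallest p belonged to the co-repressors Tle1 (-0.63 ± 0.17, adjusted p = 0.201) and Cir1 (0.21 ± 0.09, adjusted p = 0.445) and to Neurl3 (0.21 ± 0.09, adjusted p = 0.465). DESeq2 called 1 of these genes lower there. In GFP-low cells they were Egfl7 (1.08 ± 0.27, adjusted p = 0.731), the co-activator Crebbp (-0.36 ± 0.14, adjusted p = 0.752) and the co-repressor Ctbp1 (0.26 ± 0.11, adjusted p = 0.766).

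Whether the KO effect differed between the populations was tested as an interaction over all 20 libraries. None of the 9 genes passed and none had an unadjusted p under 0.05, beside 0% called and 353 genes at an unadjusted p under 0.05 among 11284 tested by edgeR; DESeq2 called 0 genes too. The largest differences were Dll4, whose KO effect was higher in GFP-low cells by 0.55 ± 0.31 on the log2 scale (interval -0.11 to 1.20), and Notch2, whose effect was lower by -0.45 ± 0.29 (interval -1.06 to 0.16). Rbpj had the smallest, 0.03 ± 0.18 (interval -0.34 to 0.40). With each mouse as a replicate block, Dll4 gave 0.51 ± 0.25 (adjusted p = 0.721, edgeR) and Notch2 -0.45 ± 0.21 (adjusted p = 0.718). In that fit 0 of the 9 genes passed. Without the block the adjusted p was above 0.99 for each of the 9. Of the 57 other pathway genes 0 passed and 4 had an unadjusted p under 0.05, with Egfl7 (1.49 ± 0.33), Ncstn (0.49 ± 0.19) and Fbxw7 (-0.33 ± 0.13) the smallest, each at an adjusted p above 0.99.

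The genes whose log2 CPM followed each Notch gene most closely over the 20 libraries were found by Pearson's r among the 8238 genes whose mean log2 CPM reached 3. These libraries share the contrast between populations, so the values are descriptive. Notch1 was closest to Lgr5 (0.96), the stem cell receptor that drives the reporter, followed by Hunk and Cachd1 (0.95 each). Notch2 was closest to Dock1 (0.96), Amt and Hnrnpa1 (0.95 each). Dll4 was closest to Hid1, Txndc5 and Selenom (0.98 each), and Dll1 to Sgsm3 (0.95), Grk2 and Dll4 itself (0.94 each). The other genes had looser neighbours: Jag1 and Plekha8 (0.88), Hes1 and Slc23a3 (0.87), Rbpj and Elp2 (0.86), Nrarp and Npepps (0.85), and Lfng and Ldb1 (0.82). Nrarp was next nearest to Kif23 and Incenp, genes of cell division (0.85 and 0.84).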

How the data were processed

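RNA from sorted crypt epithelium was sequenced in 20 libraries, 5 in each of 4 groups set by the labelled genotype and population. The authors deposited expected counts per gene in 1 table for GFP-high and 1 for GFP-low libraries. TopHat2, Bowtie2, RSEM and mm10 are named per the submitters' processing notes; for versions, annotation, filters and strand the entry is "not given in the sources used here". Where reads match several genes, RSEM divides them, which can move estimated counts of close paralogs. Of the values 13.7% were not whole, and all were rounded. Totals of 20900404 to 27838392 counts give the precision.

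The 9 Notch genes and the other gene lists were chosen with earlier results of these data known. Named other genes were, per comparison, the 3 largest rises and falls among passing pathway genes or, where none passed, the 3 of smallest p, and the 3 genes most like each of the 9; some values this rule names are not reported here. Genes under 1 unambiguous name in both tables (11284) entered comparisons between populations; 34 and 30 entries that share a name and 16 and 17 names altered to dates did not. Tests used edgeR 4.0.16 (R 4.3.3) with TMM factors, filterByExpr at a minimum count of 10, no block, and Benjamini-Hochberg adjustment over all genes; SE came from the F statistic. The fit was also run on simulated counts of unpaired libraries, for every comparison except GFP-low against GFP-high in KO mice. The outcome is not reported here. CPM used TMM factors over 20 libraries. Alternatives were DESeq2 1.42.0, DESeq2 size factors, library totals alone, other filters, a replicate block and leaving out each library.

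The mouse number was taken to pair the 2 populations of a genotype. Deviations from group means correlated between same-numbered libraries at 0.145 to 0.693 in WT and 0.192 to 0.535 in KO mice. Between unlike numbers they correlated at -0.514 to 0.205 and at -0.475 to 0.196. GFP-high libraries matched the GFP-low library of their own number best in 4 of 5 WT and 5 of 5 KO mice. No libraries were identical, and counts of libraries of a group differed well beyond sampling noise (smallest chi-square per gene 19.4).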

Additional observations from a re-analysis of the deposited data

Results flagged for a closer look

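Of 36 groups of 5 libraries tested for a single value that stands apart, 2 held one, where chance gives about 1 in 20. Nrarp in KO GFP-low libraries was at 7.72 CPM in mouse 2 and between 3.34 and 4.61 CPM in the others. The same mouse had the highest Nrarp among GFP-high libraries (10.2 CPM) and the lowest summed Paneth (25507 CPM) and goblet (25809 CPM) markers among KO GFP-low libraries; their part was not tested. Rbpj in WT GFP-low libraries was at 12.3 CPM in mouse 1 and between 9.22 and 9.62 CPM in the others.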

How the results depend on the processing

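With DESeq2 size factors in edgeR or with no filter on low counts, every call and direction of the 9 Notch genes in the 5 comparisons was as reported. Library totals alone moved the most between populations: 1 Notch gene of the set rose in WT, other pathway genes went to 1 higher and 30 lower in WT and 5 and 26 in KO mice, and all genes to 1188 higher and 4892 lower in WT and 1777 and 4737 in KO mice. Jag1 in KO mice turned to -0.042, and the difference of KO effects for Nrarp to 0.0099. Between genotypes, DESeq2 called 50 genes higher and 95 lower in GFP-high cells, 1 of them another pathway gene (lower), and 1 and 11 in GFP-low cells; a mean count of at least 100 left 0 lower in GFP-low cells and could not give 7 of the 45 fold changes of the 9 genes. The replicate block changed 1 call among the 9 genes between populations, Jag1 in WT mice (0.40, adjusted p = 0.0146, edgeR). KO and WT mice share only the numbers 3 and 6 and are different animals, so between genotypes the replicate block pairs no mice. Every library with another number was fitted by a block of its own. The KO effect of that fit thus rested on the libraries numbered 3 and 6. With it 35 genes were higher and 87 lower in GFP-high and 7 and 29 in GFP-low cells. Notch1 in GFP-high cells was at -0.13 and Nrarp in GFP-low cells at -0.47. Without a sign change, Notch2 in GFP-high cells moved from 0.06 to 0.39, and in GFP-low cells Dll1 moved from 0.05 to 0.56, Dll4 from 0.07 to 0.40 and Notch1 from -0.21 to -0.52; none passed. These values rest on fewer animals than the main fit and are no check of it. Leaving out 1 library gave 3 to 5 of the 9 genes lower in WT and 3 to 5 in KO mice, 0 to 1 genes lower in KO GFP-high and 1 to 2 in KO GFP-low cells. Values for KO against WT that did not pass changed sign in some such fits: Notch1 (-0.066 to 0.14) and Notch2 (-0.033 to 0.18) in GFP-high cells, and Dll1 (-0.10 to 0.25), Dll4 (-0.056 to 0.22) and Lfng (-0.28 to 0.12) in GFP-low cells. So did the differences of KO effects for Nrarp (-0.37 to 0.13) and Rbpj (-0.024 to 0.11). Depth limits Lfng, Nrarp and Hes1 most, with as few as 20, 45 and 62 counts in a library.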
